A study of Mus musculus with 4 samples.

Results

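The immunoglobulin heavy chain locus lies on mouse chromosome 12, and the CTCF peaks described here were chosen by position alone: every peak listed in B cells or plasmablasts whose midpoint fell from 114200000 to 117300000 on chromosome 12 (mouse build mm9, positions counted from 1). This stretch of 3.1 Mb held 101 of the 67467 peaks of both lists, 51 from B cells and 50 from plasmablasts. B cells were the CD43- fraction of spleens of C57BL/6 mice aged 6 weeks. Plasmablasts were CD138+ spleen cells that flow cytometry took from C57BL/6 mice of 6 weeks, 3 days after 50 µg lipopolysaccharide had been given retro-orbitally. Chromatin bound by CTCF was sequenced from 1 library per cell type, the B cell library on a Genome Analyzer II and the plasmablast library on a HiSeq. Lipopolysaccharide was listed for the plasmablasts alone, so cell type, treatment and instrument cannot be told apart. No replicate spread exists, and no test was run between the cell types. The peak lists hold no expression values, so the identity of the cells rests on the labels.

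CTCF is a zinc finger protein that binds DNA at insulators and at the anchors of chromatin loops. The heavy chain locus builds antibody heavy chains by joining V, D and J segments and places the joined exon before a constant gene, of which Ighm encodes the µ chain of IgM. Joining and class switching delete the DNA between the joined parts. CTCF sites are known in the V gene part, in the intergenic control region between V and D segments, where they form a pair, and downstream of the 3' regulatory enhancers, where they form a group. In the RefSeq gene table of GRCm38.p6, Tmem121 is followed by Igha, Ighe, Ighg2c, Ighg2b, Ighg1, Ighg3, Ighd and Ighm (8 constant region entries). Then come 4 J segments, 10 D segments and 121 V segments not marked as pseudogenes, up to Zfp386. Positions in that table are on another build, so the order of genes was used and no peak was placed in or beside a gene. The peaks were therefore divided at 114.45, 114.47 and 114.7 Mb into 4 stretches. These are a flank, the sites 3' of the constant genes, the constant, J and D part with Ighm, and the V gene part. The flank lies below the other stretches and is counted in the values given for the locus. The V gene part runs to the upper bound of the locus, and where the last V segment ends on mm9 was not determined.

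Most CTCF sites of the locus were listed in both cell types. Of 61 sites in all, 40 were shared, meaning that a B cell and a plasmablast peak overlapped by at least 1 bp, 11 were listed in B cells only and 10 in plasmablasts only. Among B cell peaks of the locus 78.4% were shared (exact 95% binomial interval, for counting error alone, 64.7 to 88.7%), beside 67.9% over the whole B cell list. In plasmablasts the shared percentage was 80% (66.3 to 90%), beside 79.5% over the whole list. These shares count the flank, where 92.9% of the 14 peaks of each list were shared. Of the 3 B cell peaks at the sites 3' of the constant genes 66.7% were shared, and of the 8 plasmablast peaks 25%. In the V gene part 75% of B cell and 88.9% of plasmablast peaks were shared. The constant, J and D part held only 2 and 1 peaks. Within a shared site the B cell and plasmablast midpoints were a median of 17.5 bp and at most 94 bp apart.

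Peak scores are the authors' own values in a unit not stated in the sources used here, with a median of 62.1 in the B cell list and 19.4 in the plasmablast list. They were used to rank peaks within a list, as a percentile from the weakest to the strongest. The stretches differed widely in rank. B cell peaks had a median at the 82.0th percentile in the flank and at the 35.6th in the V gene part. Plasmablast peaks had medians at the 56.9th and 35.2nd percentiles in these stretches. The 3 B cell and 8 plasmablast peaks at the sites 3' of the constant genes had medians at the 97.4th and 94.3rd percentiles. Peaks above the 90th percentile lay in the flank or at the sites 3' of the constant genes in all 7 cases in B cells and in 9 of 10 in plasmablasts, and the other one was in the V gene part.

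**Figure D1:**
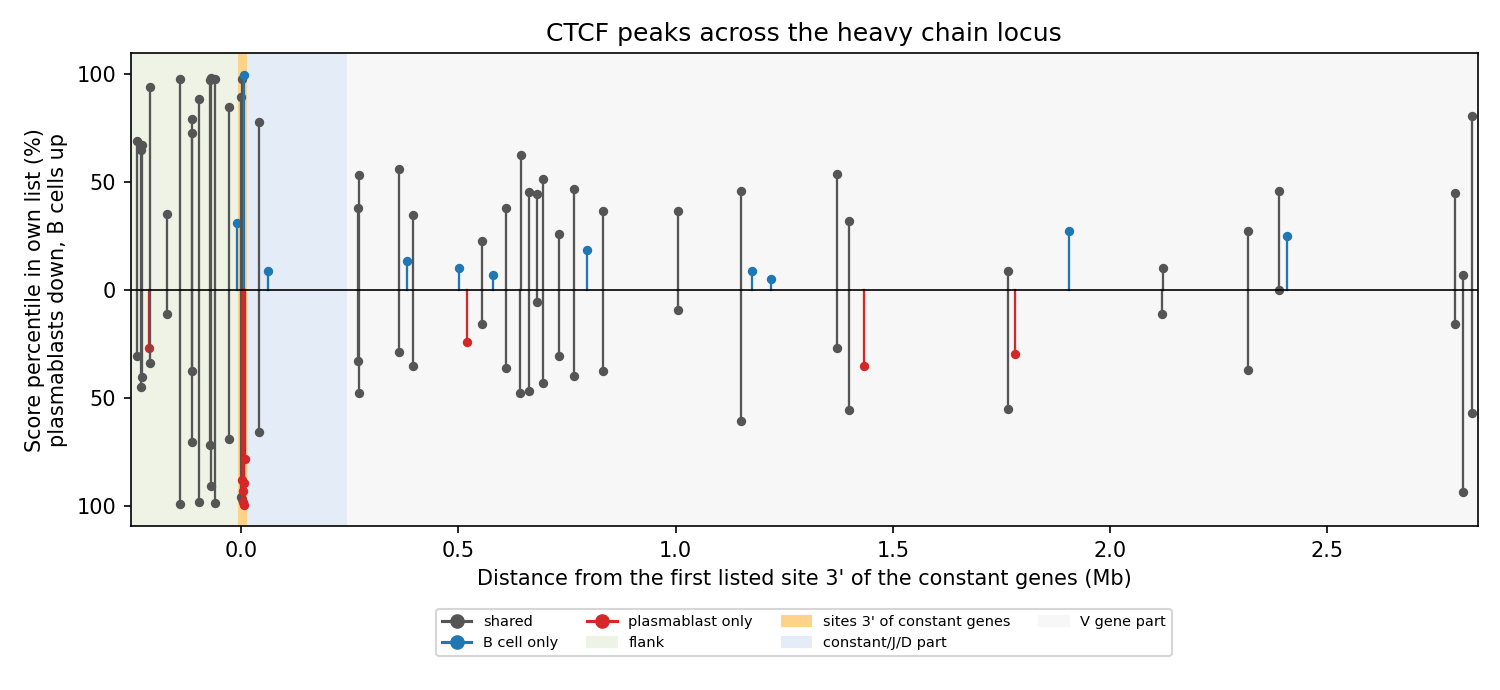
Each vertical line is a CTCF peak, placed by its distance in Mb from the first site listed 3' of the constant genes, with its score percentile in its own list (B cells upward, plasmablasts downward) and coloured by class. High percentiles cluster near 0 on the distance axis, and in the V gene part 1 plasmablast peak, at the 93.3rd percentile, and no B cell peak lies above the 90th.

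The sites 3' of the constant genes were the only one of the 4 stretches with more plasmablast than B cell peaks, 8 against 3. Of the 8 plasmablast peaks 2 were shared, or 25% (interval 3.19 to 65.1%). Over the whole plasmablast list, 94.8% were shared at the score deciles of these 8. The 8 peaks spanned 8.46 kb with neighbouring midpoints 475 bp to 1.97 kb apart. All 8 ranked above the 78th percentile, and 5 of them above the 90th.

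Read from the flank towards the constant genes, the group opened with a shared site. Its B cell peak, at 114454172 to 114454476, scored 213.0 (89.3rd percentile), and its plasmablast peak, at 114454246 to 114454424, scored 66.9 (95.6th percentile). Next was a plasmablast only peak at 114455590 to 114455768 with a score of 52.0 (87.9th percentile), 595 bp from the nearest B cell midpoint. The second shared site ranked high in both lists. It scored 272.3 in B cells (114456122 to 114456426, 97.4th percentile) and 70.0 in plasmablasts (114456214 to 114456392, 96.6th percentile).

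Beyond it, 5 more plasmablast peaks and 1 B cell peak were listed, and no interval of one overlapped an interval of the other. The plasmablast peak at 114458184 to 114458362 scored 76.7 (98.1st percentile) and lay 1999 bp from the nearest B cell midpoint. The plasmablast peak at 114459533 to 114459711 scored 60.5 (93.0th percentile), 814 bp from the nearest B cell midpoint. Both were strong in their list, and the first is among the 2 of the 6 plasmablast only peaks of the group that were more than 1 kb from any B cell midpoint. The strongest peaks of the locus in either list followed. The B cell peak at 114460284 to 114460588 scored 354.7 and was the 4th highest of 1408 on chromosome 12. The plasmablast peak at 114460597 to 114460775 scored 91.0 (99.4th percentile) and was the 10th highest of 1184. Only 8 bases separated these intervals, and their midpoints lay 250 bp apart, so they counted as unshared by the overlap rule.

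The last peaks of the group were at 114461072 to 114461250 (score 54.1, 89.3rd percentile) and 114462527 to 114462705 (score 40.8, 78.3rd percentile), both in plasmablasts only. The former lay 725 bp and the latter 2180 bp from the nearest B cell midpoint. The lists differed in resolution: peak width was 305 bp in the B cell list and 179 bp in the plasmablast list, and the smallest distance between midpoints anywhere in the list was 549 bp in B cells and 372 bp in plasmablasts. Of the 7 distances between neighbouring plasmablast midpoints in the group, 1 (475 bp) was below the smallest B cell distance. The part of this difference in resolution in the result was not tested. With midpoints within 500 bp as the rule, 5 plasmablast only peaks were left here in place of 6, and with peaks within 1 kb merged there were 4.

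**Figure D2:**
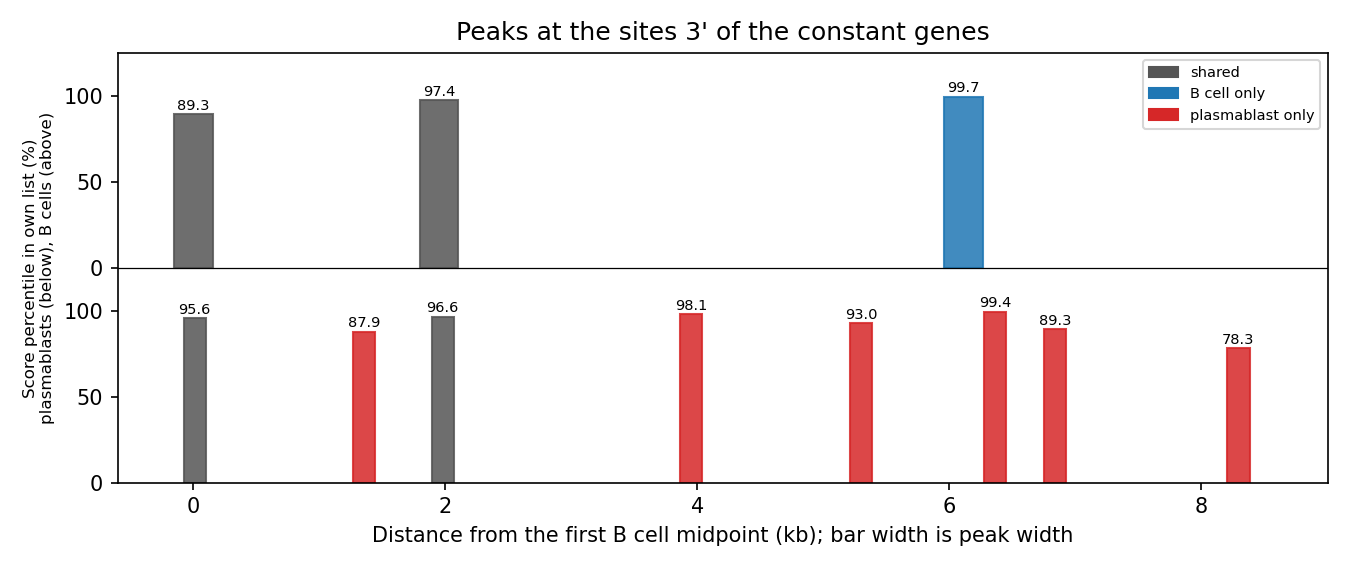
Bars are the peaks at the sites 3' of the constant genes, drawn to scale in width along the distance in kb from the first B cell midpoint, with height and number giving the score percentile (B cells above, plasmablasts below). The 3 B cell peaks rank between 89.3 and 99.7 and the 8 plasmablast peaks between 78.3 and 99.4, and 6 of the 8 have no overlapping B cell peak.

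In the 230 kb of the constant, J and D part, which holds Ighm, 2 peaks were listed in B cells and 1 in plasmablasts. That is 8.70 and 4.35 peaks per Mb, beside 14.2 and 12.1 over all chromosomes, and with so few peaks the densities are rough. The shared site scored 155.6 in B cells (114495554 to 114495858, 77.8th percentile) and 29.7 in plasmablasts (114495576 to 114495754, 65.5th percentile). The other B cell peak, at 114516202 to 114516506, was weak (score 17.6, 8.55th percentile) and lay 20.7 kb from the nearest plasmablast midpoint. Above it no peak of either list was found for 207 kb. In the plasmablast list the empty stretch was 228 kb. Which of the constant genes, J segments and D segments lie in that stretch was not determined. Depth is unknown, so a stretch without listed peaks is not shown to be free of CTCF.

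The V gene part opened with a close pair of shared sites at the far side of this empty stretch. The first scored 41.7 in B cells (114723347 to 114723651, 38.1st percentile) and 11.9 in plasmablasts (114723400 to 114723578, 32.7th percentile). The second scored 68.5 in B cells (114725911 to 114726215, 53.0th percentile) and 18.2 in plasmablasts (114726013 to 114726191, 47.5th percentile). The midpoints of the pair were 2.56 kb apart in B cells and 2.61 kb in plasmablasts, and the first site ranked below the second in each list. Whether the pair is the control region between V and D segments was not determined. The next peak upward was 90.5 kb away.

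Along its 2.6 Mb the V gene part had 35 sites, of which 24 were in both lists, 8 in B cells alone and 3 in plasmablasts alone. Its density was 12.3 peaks per Mb in B cells and 10.4 in plasmablasts, beside 11.8 and 9.87 over the rest of chromosome 12 and 14.2 and 12.1 over all chromosomes. Sites were densest at the end nearest the D segments. In 5 blocks of 520 kb, counted from that end, the B cell list held 14, 7, 3, 3 and 5 peaks and the plasmablast list 12, 4, 5, 2 and 4. Both lists had their highest count in the first block.

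**Figure D3:**
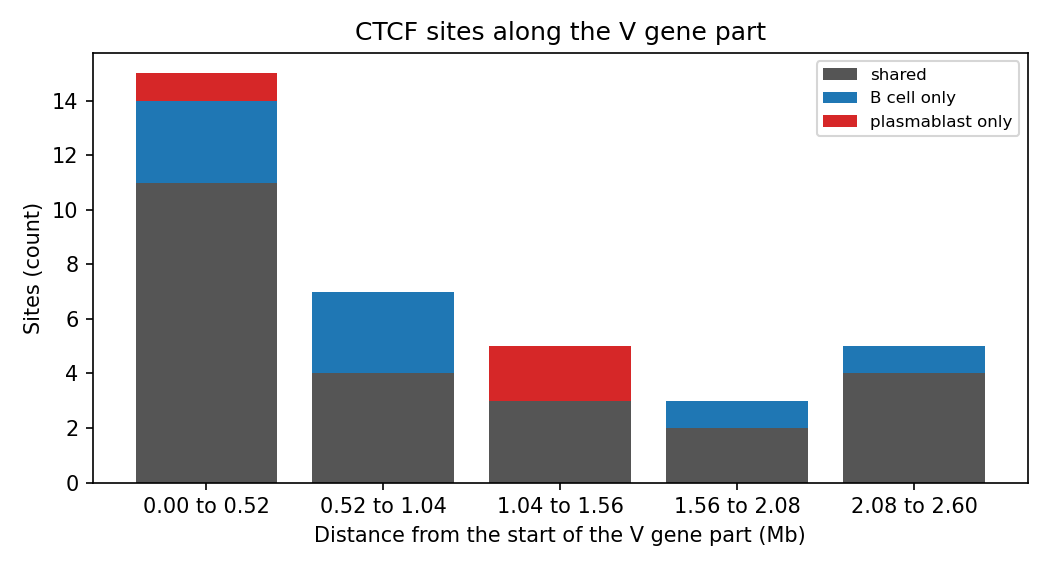
Stacked bars give the number of shared, B cell only and plasmablast only CTCF sites in 5 equal blocks of the V gene part, by distance in Mb from its start nearest the D segments. The first block holds 11 of the 24 shared sites.

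When both lists were joined, 10 of the 100 gaps between neighbouring midpoints of the locus exceeded 100 kb (10%, beside 6.69% over all chromosomes). Both midpoints of each shared site were kept, so the 100 gaps include the distances within the 40 shared sites, of at most 94 bp. The percentages of joined gaps over all chromosomes were counted in the same way. All of them are lower than they would be with each shared site counted once. Of the gaps over 100 kb in the joined lists, 9 were in the V gene part, which makes up 83.9% of the length. Between neighbouring midpoints of 1 list, 10 of 50 gaps across the locus exceeded 100 kb in B cells (20%, beside 11.9% over all chromosomes) and 9 of 49 in plasmablasts (18.4%, beside 15.8%). In the joined lists, 4 gaps of the locus were longer than 200 kb and 2 longer than 300 kb. Of the gaps of the joined lists over all chromosomes, 3.05% exceeded 200 kb and 1.95% exceeded 300 kb. The longest, 387 kb, ran from the B cell only peak at 116862482 to 116862786 up to the shared site whose B cell peak is at 117249100 to 117249404. The next, 331 kb, ran from the plasmablast only peak at 115888757 to 115888935 up to the shared site whose plasmablast peak is at 116219793 to 116219971.

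Most sites of the V gene part were shared, and most were weak. Of the 32 B cell peaks there, 26 did not exceed the median score of their list, and 18 of these 26 were shared (69.2%, interval 48.2 to 85.7%). Over the whole B cell list 42% of such peaks were shared. In plasmablasts 19 of 22 such peaks were shared (86.4%, interval 65.1 to 97.1%), beside 69.2% over the whole list. Weighting the whole lists to the score deciles of the V gene peaks gave 51.8% shared in B cells, where the V gene part had 75%. The corresponding values in plasmablasts were 74.0% and 88.9%. The difference from the rest of the list was not tested.

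The unshared sites of the V gene part were all in the lower part of their list, where most unshared peaks of the whole lists also lay. The 8 B cell only peaks scored 15.7 to 29.6 (5.17th to 27.2nd percentile), and the nearest plasmablast midpoint was 13.6 to 124 kb away. The 3 plasmablast only peaks scored 9.4, 12.8 and 11.0 (24.1st, 35.2nd and 29.9th percentile), at 15.3 to 35.3 kb from the nearest B cell midpoint. No unshared peak of either list above its median score was found in the V gene part. Only 6 B cell and 5 plasmablast peaks there exceeded that median, and over the whole lists 94.1% and 89.8% of such peaks were shared.

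The strongest B cell peak of the V gene part lay at its far end, at 117287968 to 117288272, with a score of 168.6 (80.6th percentile). Its plasmablast partner scored 23.7 (117288020 to 117288198, 56.9th percentile). The next B cell peak, at 115097157 to 115097461, scored 94.5 (62.5th percentile) and was at the 47.9th percentile in plasmablasts. The other 8 of the 10 highest B cell peaks scored 52.8 to 75.9, and all 10 were shared. In plasmablasts the highest was at 117266429 to 117266607 with a score of 61.2 (93.3rd percentile), followed at a distance by 115604583 to 115604761 with 26.2 (60.5th percentile). The remaining 8 of its 10 highest scored 14.6 to 23.7, and all 10 were shared too. Of the 10 highest, 6 in B cells and 5 in plasmablasts exceeded the median score of their list. Over the whole lists 94.1% and 89.8% of peaks above the median were shared, and 42% and 69.2% of the others. Whether V segments reach as far as the peaks at 117266429 and 117287968 on mm9 was not determined.

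The highest plasmablast peak of the V gene part was at a site that ranked near the bottom in B cells. Its B cell peak, at 117266396 to 117266700, scored 16.7 (6.77th percentile), a plasmablast minus B cell difference of 86.6 percentile points. Only 5 of the 24702 shared sites of the whole lists, this one included, differed by as much in that direction. The neighbouring shared sites, 17.3 kb below and 21.6 kb above, differed the other way, by -29.0 and -23.7 points. The site was thus high in plasmablasts between sites that ranked higher in B cells.

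Over all 40 shared sites of the locus the percentile difference (plasmablast minus B cell) had a median of -7.19 points, beside -7.16 over all shared sites of the lists. All shared peaks of the lists had a median at the 65.4th percentile in B cells and at the 56.1st in plasmablasts. What part of the sign at the locus comes from this was not tested. Ranked among shared peaks only, the median difference turned to 0.38 over the locus and to 6.29 in the V gene part. Percentiles in plasmablasts were lower by more than 20 points at 13 sites (32.5%, beside 26.9% over all shared sites) and higher by more than 20 points at 3 sites (7.5%, beside 8.12%). In the V gene part 11 of 24 shared sites (45.8%) differed by at most 10 points, beside 39.1% of all shared sites. After the site at the far end, the largest differences upward were 46.7 points at 116219741 to 116220045 (B cell score 17.6, plasmablast score 22.6) and 23.7 points at 115853436 to 115853740 (34.3 and 23.0). Those at 115604603 to 115604907 and 116771407 to 116771711 were 14.8 and 10.0 points.

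The largest difference downward in the V gene part was -45.8 points, at the site whose B cell peak is at 116843190 to 116843494. The B cell peak there scored 53.7, and the plasmablast peak scored 0.5, among the 5 peaks below 1 in that list. The number in the name of this plasmablast peak, 1083, is close to the 1087 of the plasmablast peak at 117249176 to 117249354, which scored 7.5. Its place as the largest difference thus rests on a score that the name number does not follow. The next difference downward was -38.8 points at 115134460 to 115134764, with scores of 50.9 in B cells and 5.3 in plasmablasts. It was followed by -29.0 points at 117249100 to 117249404, and by -27.3 points at both 114816526 to 114816830 and 115460791 to 115461095. A rank compares a site with the other peaks of its own list, so these differences do not measure a change in the amount of bound CTCF.

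**Figure D4:**
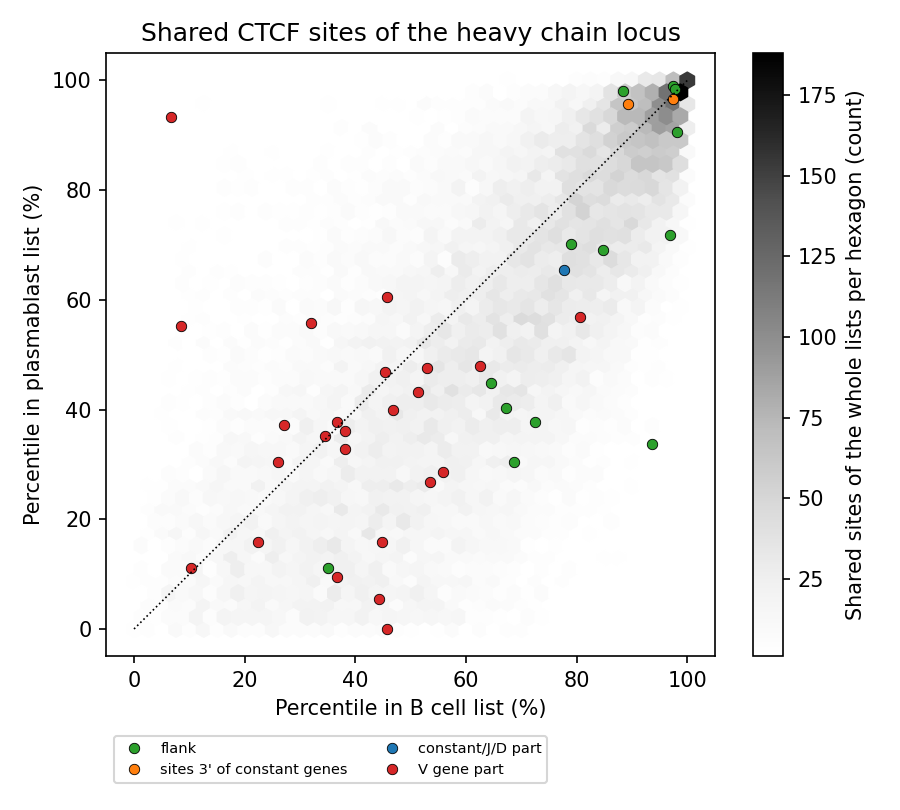
Points are the 40 shared sites of the locus by their percentile in the B cell list (horizontal) and in the plasmablast list (vertical), coloured by stretch, over grey hexagons that count all shared sites of the lists. The site at 6.77 and 93.3, at the far end of the V gene part, stands far above the dotted line of equal percentiles. A flank site at 93.7 and 33.7 stands far below that line.

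The flank below the sites 3' of the constant genes, 250 kb long, held 14 peaks in each list, and 13 of its sites were shared. That is 92.9% in either list, beside 91.2% of B cell and 83.7% of plasmablast peaks at the same score deciles over the whole lists. Of the B cell peaks 12 exceeded the median score of their list, and of the plasmablast peaks 7. The 4 highest in B cells scored 280.6 (114384311 to 114384615), 276.9 (114394142 to 114394446), 271.4 (114313371 to 114313675) and 266.7 (114382664 to 114382968), all above the 96th percentile. In plasmablasts the partners of these 4 were at the 90.6th, 98.4th, 99.0th and 71.9th percentiles. The 5th in B cells, at 114243257 to 114243561, scored 239.9 (93.7th percentile), and its plasmablast peak scored 12.3 (33.7th percentile). That difference of -59.9 points was the lowest of the locus, and 0.846% of all shared sites had one as low. The top 5 in plasmablasts also included the site at 114357785 to 114357963 with a score of 76.4 (98.0th percentile). Of the 13 shared flank sites 10 ranked lower in plasmablasts, beside 66.0% of all shared sites, and 6 did so by more than 20 points, beside 26.9%. The median difference was -19.9 points, beside -7.16 over all shared sites. The unshared flank peaks were weak: 1 in B cells at 114443793 to 114444097 (score 33.3) and 1 in plasmablasts at 114241034 to 114241212 (score 10.1), 2286 bp from the 239.9 peak.

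The bounds of the locus fell among further sites. Below 114200000 the nearest B cell peak, at 114196560 to 114196864, was unshared with a score of 82.4, and the nearest plasmablast peak, at 114194147 to 114194325, was shared with a score of 53.8. The first peaks inside, a shared site at 114214577 to 114214881 in B cells, scored 116.7 and 11.2. Above 117300000 the nearest site was shared, at 117309480 to 117309784 in B cells, with scores of 64.8 and 5.9.

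Another antibody locus, that of the kappa light chain, is on chromosome 6. From 67 to 71 Mb of that chromosome the B cell list held 33 peaks and the plasmablast list 51. Of these sites 28 were shared, 5 B cell only and 23 plasmablast only. There 84.8% of the B cell peaks and 54.9% of the plasmablast peaks were shared, beside 67.9% and 79.5% over the whole lists. The heavy chain V gene part had 24 shared, 8 B cell only and 3 plasmablast only sites. The heavy chain locus as a whole had 11 B cell only and 10 plasmablast only sites, and the whole lists had 11679 and 6384 unshared peaks, so B cell only peaks were also the more numerous kind over the whole lists. These counts were not tested against each other, and the bounds of the kappa genes on mm9 were not determined.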

How the data were processed

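CTCF-bound DNA from splenic B cells and plasmablasts of mice was analysed as 2 deposited peak lists, 1 per library; the 2 input libraries were not analysed here. The submitters' processing notes name Bowtie, HOMER and build mm9; for versions and peak thresholds, nothing was given in the sources used here. The peak score in the deposited lists is the authors' value, with its unit not stated, so depth is unknown and scores were ranked only within a list (mean rank for ties, as a percentile). Deposited BED starts were raised by 1.

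Peaks were shared at an overlap of at least 1 bp. The 40 shared peaks of each list at the locus were checked with bedtools 2.31.1, and the matching was tested on simulated data. Shares have exact (Clopper-Pearson) 95% intervals. Stretch bounds came from the rule that chose the locus. Single peaks named are all those at the sites 3' of the constant genes and in the constant, J and D part. In the V gene part they are the 10 highest of each list (given partly as ranges), unshared peaks above the list median and the 5 largest percentile differences each way. In the flank they are the 5 highest, and the peaks beside the bounds are added. The remaining single peaks, such as those beside the longest gaps, were chosen after their values were seen. Members and lists were chosen with earlier results of these data known. Gene order came from RefSeq (GRCm38.p6); with no mm9 genome or annotation used here, promoters, motifs and sequences were not examined. Alternatives were other overlap rules and widths, stricter or merged lists, and other rankings. Python 3.11.15, numpy 2.4.6, pandas 2.3.3, scipy 1.17.1 and matplotlib 3.10.9 were used.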

Additional observations from a re-analysis of the deposited data

How the results depend on the processing

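Of 79 alternative values for 18 results, 63 stayed within the counting interval, 1.5 times the count or 5 percentile points, 14 moved and 2 were reversed. When only peaks scoring above their list's median were kept, 95.5% of the B cell peaks of the locus (94.1% of the whole list) and 71.4% of the plasmablast peaks (89.8% of the whole list) were shared. That filter left 21 shared B cell peaks, 1 peak in B cells alone and 6 in plasmablasts alone, with 6 shared B cell peaks and 0 unshared peaks of either list in the V gene part. Ranked among shared peaks only, the median percentiles were 33.3 (B cells) and 35.0 (plasmablasts) over the locus and 21.6 and 30.0 in the V gene part. The median percentile difference became 0.38 over the locus and 6.29 in the V gene part, in place of -7.19 and -5.45. Ranked by the number in the peak name, an alternative chosen after seeing the data, the V gene median was -10.5, and the site at the far end kept a difference of 83.2 points. At gaps of at most 1 kb the longest run at the 3' sites held 1 B cell and 2 plasmablast peaks, in place of 2 and 8 at gaps of at most 2 kb. With gaps of at most 5 kb it held 3 and 8. No replicate could be left out with 1 library per cell type, and no paired analysis was possible because each group has 1 sample. With no depth stated, an unlisted site may still be bound.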

Other observations

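The number in a peak's name follows the score closely in B cells and less so in plasmablasts. On chromosome 12 the Spearman rank correlation between number and score was -0.9999 over 1408 B cell peaks and -0.97 over 1184 plasmablast peaks, which share a library and are not independent. At the heavy chain locus it was -0.95 over the 50 plasmablast peaks. The plasmablast peak at 116843324 to 116843502, with a score of 0.5, has the number 1083, where the highest number on the chromosome is 2537. What the number stands for is not stated in the sources used here.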
